A study of Mus musculus with 6 samples.

Results

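Chemokines are small secreted proteins that direct the movement of white blood cells, and their receptors are cell-surface proteins that signal through G proteins. The CC and CXC families are named for the spacing of conserved cysteines, and several ligands can share a receptor. In liver, Kupffer cells, endothelium, hepatocytes and arriving white blood cells are all known sources of chemokines, and inflammatory cytokines and interferons are known inducers of many of them. Ligands and receptors were followed here in livers of 6 male mice of the KK/H1J strain, which is used as a model of type 2 diabetes with obesity. Members were all probe sets that the platform annotation names with exactly 1 symbol of the Ccl, Cxcl, Ccr or Cxcr series, or as Cx3cl1, Cx3cr1, Xcl1, Xcr1, Pf4, Ppbp or Ackr1 to Ackr4. This gave 73 of 22626 probe sets, for 55 of the 12393 genes named in this way. Of these, 44 probe sets stood for 34 ligand genes and 29 for 21 receptor genes.

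By their age labels all 6 mice were 12 to 14 weeks old, although the description of BPD mouse 28 begins the range at 2 weeks. They weighed about 35 g, were fed freely and received the same stated dose of adenovirus into the tail vein, 7 days before the liver was taken. In 3 mice (BPD, mice 23, 28 and 36) the virus carried a bisphosphatase-deficient form of PFK-2/FBPase-2, the bifunctional enzyme that sets the level of a glycolysis-activating sugar phosphate. In the other 3 (GFP, mice 22, 29 and 31) it carried green fluorescent protein. The GFP livers are therefore virus-treated controls, and no uninjected liver is among the samples. The promoter in the viruses is not given in the sources used here. Each liver was measured on 1 array, which gives 1 signal intensity per probe set. Hepatocyte genes were bright on every array, with albumin (Alb) between 14784 and 21340. In pieces of whole liver, fewer cells of a type and less RNA per cell cannot be told apart.

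Levels are given as the deposited signals, and differences as BPD minus GFP on the scale of log2(signal + 16.3) after centring each array on its median, with the standard error (SE) of the limma fit. The constant of 16.3 understates differences of dim probe sets. The array medians were 174, 197 and 176 in BPD and 135, 157 and 143 in GFP livers, so centring lowers BPD relative to GFP values, and a log2 difference is smaller than the ratio of the signals. Tests covered 13575 probe sets bright enough on average over all 6 arrays (a signal of about 98.8), 29 of them members. The nearest members outside this limit were a probe set of Cx3cl1 (mean log2 value 6.75) and that of Ccl2 (6.71), and the nearest inside were probe sets of Ccr2 (6.85) and Ccr1 (6.86). A probe set was called at a Benjamini-Hochberg adjusted p under 0.05.

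Of the 29 members tested, 8 were higher in BPD livers and 0 were lower. The 8 were both probe sets of Ccl6 and 1 each of Ppbp, Cxcl10, Cxcl16, Pf4, Cxcr3 and Cxcr6. At an unadjusted p under 0.05, 12 were higher and 3 lower. The 8 make up 27.6% of the members tested, whereas 8.28% of all probe sets tested were called higher and 20.3% lower. Ppbp, Cxcr6 and the called probe set of Cxcl16 had mean signals in GFP livers (63.8, 76.3 and 55.4) under the limit and passed it through their BPD signals, which favours calls of rises in that count. With all 22626 probe sets tested and no limit, 12 of 73 members (16.4%) were higher and 3 (4.11%) lower, against 5.27% and 10.8% of all probe sets. The median difference over the 73 was -0.00028, and that over all probe sets was -0.22. The count of 8 was 11 with the arrays as deposited (16.7% of all probe sets were then higher and 9.68% lower) and 7 with quantile normalization (12.4% and 12%), each with 0 members lower. It was 3 of 26 tested without BPD mouse 28, 5 of 29 without GFP mouse 22 and 5 of 30 without GFP mouse 31. With the limit set at the 60th percentile it was 4 of only 12 tested. The shares of all probe sets called in these last settings were not taken.

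**Figure D1:**
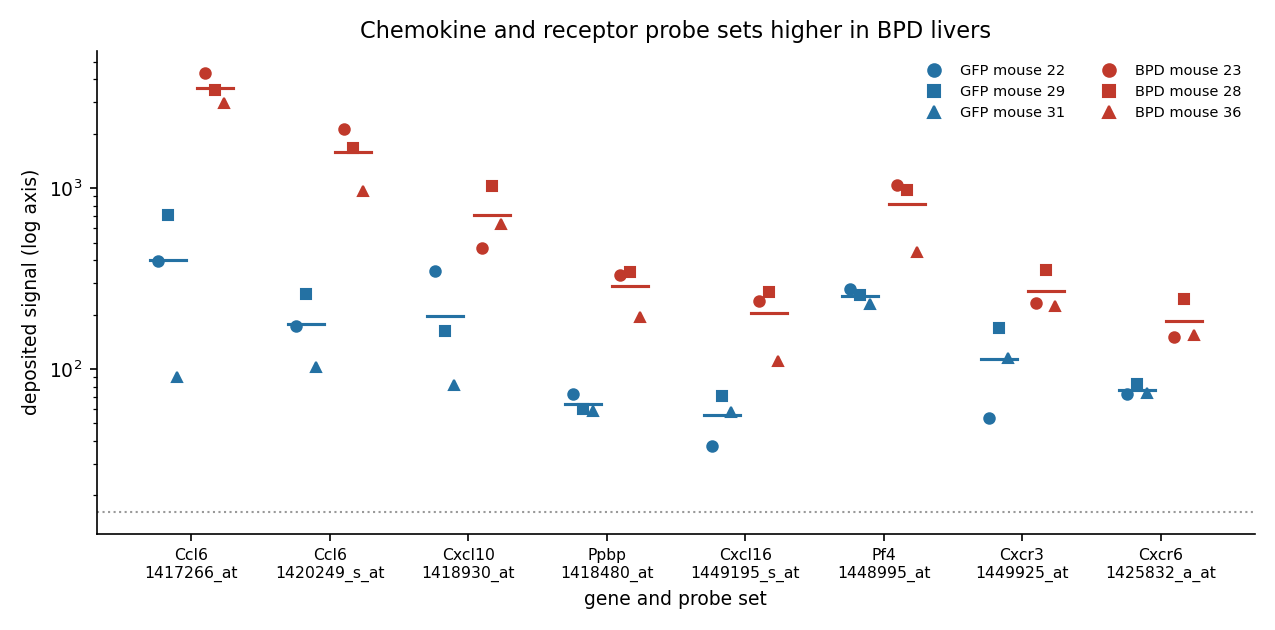
Deposited signal (log axis) of the 8 called probe sets in each liver, GFP in blue and BPD in red. Horizontal bars are group means (n = 3 each) and the dotted line is the added constant of 16.3. In all 8 every BPD liver lies above every GFP liver, and BPD mouse 36 is the lowest BPD liver in 6 of them.

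Ccl6 showed the largest fitted difference of the 73 probe sets on the log2(signal + 16.3) scale, which lowers the difference of dim ones such as Ccl3. It encodes a CC chemokine of rodents made mainly by myeloid cells. Its brighter probe set had signals of 4350, 3491 and 2944 in BPD livers 23, 28 and 36 and of 396, 709 and 90.8 in GFP livers 22, 29 and 31. The lowest BPD liver was thus well above the highest GFP liver, and the GFP livers themselves were far apart. Ccl6 rose by 3.19 ± 0.55 on the log2 scale, or 9.11-fold (limma adjusted p = 0.0034). Its second probe set rose by 2.76 ± 0.33 (limma adjusted p = 8.4e-04), from 178 ± 79.4 to 1591 ± 586 (SD, n = 3 each). Both probe sets passed under every alternative run on them, with differences between 2.41 and 3.73.

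Ccl9, a close relative of Ccl6 and the neighbouring protein-coding gene, did not pass. Its brighter probe set stood at 2858, 2336 and 1888 in BPD livers and at 1273, 1987 and 2187 in GFP livers. The groups overlapped, with a difference of 0.09 ± 0.23 (limma adjusted p = 0.78), and the second probe set gave 0.15 ± 0.18 (limma adjusted p = 0.54). Within each mouse, the log2 value of Ccl6 minus that of Ccl9 was 0.60, 0.58 and 0.64 in BPD livers, against -1.64, -1.47 and -4.36 in GFP livers. The group means of this within-mouse value lay 3.10 apart. This was one of 6 such comparisons of ligand pairs, all chosen after the values had been seen. In 5 of them, namely Ccl6 with Ccl9, Cxcl10 with Cxcl9 and with Cxcl11, and Ppbp and Pf4 each with Cxcl5, the exact 2-sided permutation p was 0.1 (0.12 after Benjamini-Hochberg adjustment over the 6), the smallest raw p that 3 against 3 mice allow. In Pf4 with Cxcl1 it was 0.2 (0.2 adjusted). None of the 6 passed.

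The stretches before the start sites of this pair and of the pair Cxcl10 and Cxcl9, described further on, are shown because in each pair 1 gene passed the test and the other did not, a difference that was itself not past the threshold. Ccl6 and Ccl9 are adjacent, whereas Cxcl10 and Cxcl9 lie on the same chromosome without being adjacent in the gene table. The sequences are RefSeq promoter sequences of build GRCm38.p6, 250 bases before the annotated start, written 5′ to 3′ on the gene's strand. All 4 genes lie on the minus strand. Capitals mark matches, on either strand, to any of 4 motifs, each searched as 1 letter pattern. For NF-kB and for the interferon-stimulated response element this was 1 narrow form of the site. The others were AGATAA for GATA factors and GAGGAA for the core of PU.1. Other forms of these sites were not searched, so lower case does not show that a site is absent. The motifs were searched separately, so matches could overlap.
Ccl6 (chr11:83593088-83593337): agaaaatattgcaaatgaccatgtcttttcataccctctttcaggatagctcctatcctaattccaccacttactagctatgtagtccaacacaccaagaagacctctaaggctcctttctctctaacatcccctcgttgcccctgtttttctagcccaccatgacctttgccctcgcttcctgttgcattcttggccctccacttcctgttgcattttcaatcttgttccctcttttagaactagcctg
Ccl9 (chr11:83578637-83578886): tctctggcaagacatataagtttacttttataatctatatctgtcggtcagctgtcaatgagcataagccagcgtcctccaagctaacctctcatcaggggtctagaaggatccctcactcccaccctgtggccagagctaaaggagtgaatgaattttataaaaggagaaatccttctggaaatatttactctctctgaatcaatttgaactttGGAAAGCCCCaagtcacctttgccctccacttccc
Cxcl10 (chr5:92348890-92349139): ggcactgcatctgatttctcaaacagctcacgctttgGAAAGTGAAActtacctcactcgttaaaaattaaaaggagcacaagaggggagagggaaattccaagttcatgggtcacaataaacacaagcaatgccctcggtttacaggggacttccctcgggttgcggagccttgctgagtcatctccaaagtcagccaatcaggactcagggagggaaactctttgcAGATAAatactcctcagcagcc
Cxcl9 (chr5:92328080-92328329): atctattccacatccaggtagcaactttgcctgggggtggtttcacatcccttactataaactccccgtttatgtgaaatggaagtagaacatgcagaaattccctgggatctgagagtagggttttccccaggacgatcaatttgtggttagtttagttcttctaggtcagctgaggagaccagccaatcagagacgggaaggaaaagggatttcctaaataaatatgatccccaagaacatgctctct

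Cxcl10 held the interferon element between 213 and 204 bases before its start and an AGATAA match between 22 and 17 bases before it. Ccl9 held an NF-kB match on the opposite strand, between 35 and 26 bases before its start. Ccl6 and Cxcl9 held none of these letters in the stretch shown. Of all 32851 promoters of this length, 1.41% held the NF-kB letters, 2.98% the interferon element, 9.99% AGATAA and 23.3% GAGGAA. Among 46 promoters of 42 member genes, 5 held the NF-kB letters (Ccl9, Ccl20, Ccr3, Cxcl1 and Cxcl2), 2 the interferon element (Cxcl10 and Cxcl14), 7 AGATAA and 14 GAGGAA. A match is a run of letters and says nothing about binding in these livers. A stretch without a match, such as that of Cxcl10 for the NF-kB letters, can still hold another form of the site.

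Ccl5, Ccl9, Ccl6, Ccl3 and Ccl4 follow each other on the chromosome without another protein-coding gene between them. Ccl3, an inflammatory ligand of CCR1, was at 69.2, 93.9 and 66.3 in BPD livers and at 5.80, 8.24 and 3.59 in GFP livers. It was too dim for the test, and all GFP values lay below the added constant, so the size of its difference is uncertain. Tested without the limit, Ccl3 rose by 1.76 ± 0.22 (limma adjusted p = 0.0022). Ccl4, its close relative, ranged from 221 to 509 in BPD and from 179 to 221 in GFP livers, a difference of 0.46 ± 0.24 that did not pass (limma adjusted p = 0.19). It was 0.73 without BPD mouse 23, which passed (limma adjusted p = 0.029), 0.24 without BPD mouse 28 (limma adjusted p = 0.54) and 0.76 with the arrays as deposited (limma adjusted p = 0.075). Ccl5, a T cell and monocyte attractant, had signals of 754, 782 and 634 in BPD livers and 256, 533 and 93.8 in GFP livers. Every BPD liver was above every GFP liver, yet the wide spread of the GFP livers left the difference of 1.23 ± 0.44 short of the threshold (limma adjusted p = 0.063). With the arrays as deposited it passed, at 1.54 (limma adjusted p = 0.048), and without GFP mouse 29 at 1.74 (limma adjusted p = 0.0099). Without GFP mouse 31 it was 0.64 (limma adjusted p = 0.10).

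**Figure D2:**
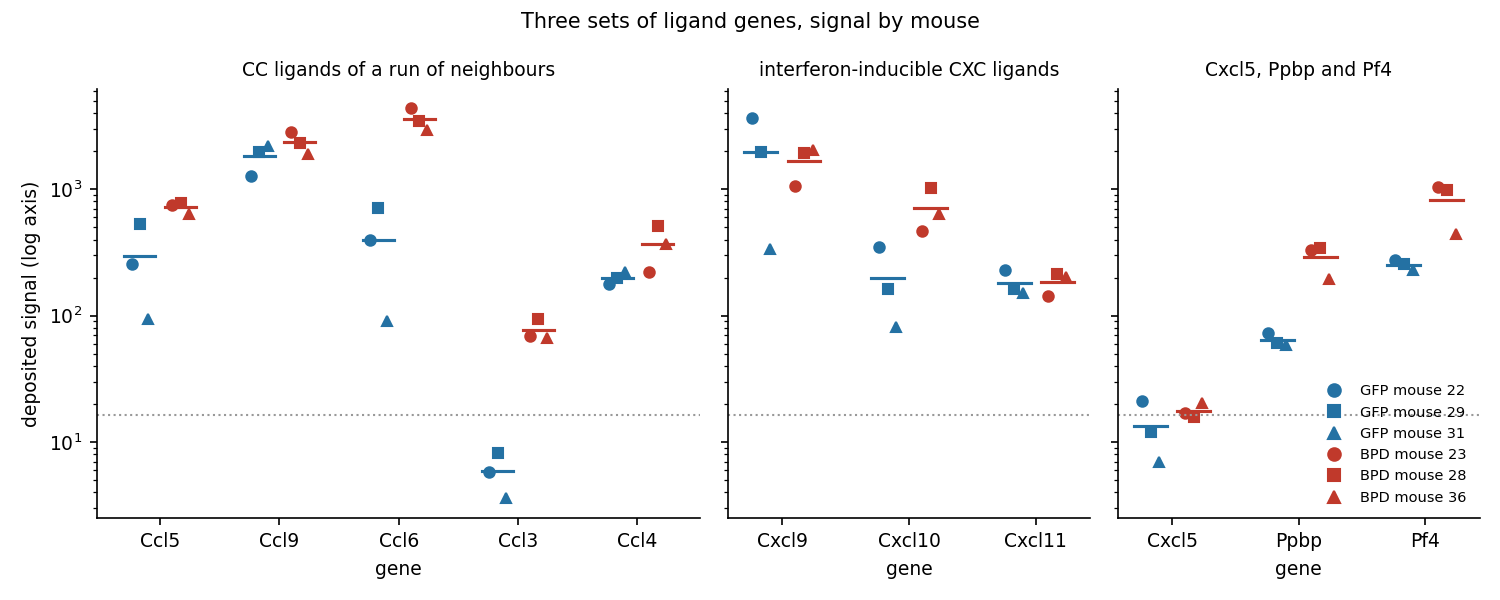
Deposited signal (log axis) by liver for 3 sets of ligand genes, GFP in blue and BPD in red, with group means as bars (n = 3 each) and the added constant of 16.3 as a dotted line. Ccl6 and Ccl3 separate the groups while Ccl9 between Ccl5 and Ccl6 does not. Cxcl10, Ppbp and Pf4 separate the groups, and Cxcl9, Cxcl11 and Cxcl5 overlap.

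The ligands that attract monocytes were dim or did not pass. Ccl8, the only one bright enough for the test, was at 444, 330 and 257 in BPD livers and between 157 and 175 in GFP livers. The groups did not overlap, and the difference was 0.63 ± 0.21 (limma adjusted p = 0.053). It passed in 5 alternatives, among them the arrays as deposited (0.93, limma adjusted p = 0.014) and leaving out BPD mouse 36 (0.79, limma adjusted p = 0.026). Without BPD mouse 23 it was 0.40 (limma adjusted p = 0.15). Ccl2, the main ligand of CCR2, was at 110, 272 and 122 in BPD livers and at 54.3, 75.4 and 24.0 in GFP livers. Tested without the limit, its difference was 1.12 ± 0.38 (limma adjusted p = 0.075), and that of Ccl7 was 0.81 ± 0.30 (limma adjusted p = 0.10). Ccl12 was at most 20.1 on any array, and the groups overlapped. The eosinophil attractants Ccl11 and Ccl24 overlapped too, and Ccl24 ranged from 15.1 to 157 within the BPD livers alone.

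Among the other CC ligands 1 probe set fell, that of Ccl25, and only when tested without the limit. Ccl25, a ligand of gut-homing T cells, was at 36.3, 37.9 and 37.1 in BPD livers and at 58.4, 73.7 and 71.6 in GFP livers. It was too dim for the test, and fell by 0.95 ± 0.22 without the limit (limma adjusted p = 0.021). Among the brighter ones, the mucosal ligand Ccl28 had a difference of -0.65 ± 0.24 (limma adjusted p = 0.068). The skin ligand Ccl27a had one of -0.55 ± 0.21 (limma adjusted p = 0.081). Neither passed, and for both the groups overlapped in the deposited signals but not after centring. Both passed as lower without the intensity trend in eBayes (limma adjusted p of 0.044 and 0.047), and Ccl27a also with array weights (limma adjusted p = 0.0495). With the arrays as deposited they were -0.35 and -0.25 (limma adjusted p of 0.34 and 0.42). Ccl1, Ccl17 and Ccl22 reached at most 63.7 on any array with overlapping groups, and Ccl20 at most 48.6.

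Pf4 and Ppbp, both known as abundant proteins of platelet granules, rose together. Ppbp is also the precursor of a neutrophil attractant. Ppbp was at 329, 345 and 194 in BPD livers and at 72.6, 60.3 and 58.6 in GFP livers. The GFP livers lay close together and every BPD liver was far above them. It rose by 1.59 ± 0.25, or 3.02-fold (limma adjusted p = 0.0021), and kept its call under every alternative run on it. Pf4 was at 1038, 978 and 443 in BPD livers and at 276, 256 and 229 in GFP livers, and rose by 1.24 ± 0.29, or 2.36-fold (limma adjusted p = 0.012). Its difference was 1.12 without BPD mouse 28, which did not pass (limma adjusted p = 0.054).

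Other platelet markers were not called beside Pf4 and Ppbp. Of 7 named here, 5 were bright enough for the test, and 0 were called in either direction (0 also at an unadjusted limma p under 0.05). Of all genes tested 8.75% were higher and 22.1% lower, so a count of 0 among 5 says little. The part of platelets in the rises of Pf4 and Ppbp was not tested. The integrin Itga2b had a difference of 0.06 (limma adjusted p = 0.83) and Treml1 one of -0.04 (limma adjusted p = 0.88). Itgb3 lay below the added constant on every array. The summed signal of the 7 was 1110 to 1885 in BPD and 872 to 1490 in GFP livers, which overlap. Clec1b was the largest part of it in every liver, at 334 to 1220 in BPD and 239 to 678 in GFP livers. Cxcl5, the protein-coding gene next to Ppbp, was at most 21.1 on any array.

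The neutrophil attractants Cxcl1 and Cxcl2, ligands of CXCR2, differed from each other. Cxcl1 was at 798, 2742 and 843 in BPD livers and at 792, 1061 and 1045 in GFP livers. BPD mouse 28 alone was high and the other BPD livers lay within the GFP range, with a difference of 0.05 ± 0.37 (limma adjusted p = 0.93) that was -0.47 without that mouse. Cxcl2 was at 110, 218 and 75.4 in BPD livers and at 26.8, 39.5 and 35.8 in GFP livers. It was too dim for the test and rose by 1.18 ± 0.32 when tested without the limit (limma adjusted p = 0.040). Cxcl15 was between 29.0 and 65.6 with a difference of -0.66 (limma adjusted p = 0.096 without the limit).

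Of the interferon-inducible ligands of CXCR3, Cxcl10 rose and Cxcl9 and Cxcl11 did not. Cxcl10 was at 469, 1025 and 635 in BPD livers and at 349, 163 and 81.1 in GFP livers. The groups did not overlap, but BPD mouse 23 and GFP mouse 22 were near each other. Cxcl10 rose by 1.60 ± 0.44, or 3.02-fold (limma adjusted p = 0.024). The call ended without BPD mouse 28 (1.35, limma adjusted p = 0.096), GFP mouse 29 (1.52, limma adjusted p = 0.058) or GFP mouse 31 (1.14, limma adjusted p = 0.058), and with robust eBayes (limma adjusted p = 0.051). Cxcl9 varied widely among the GFP livers, with 1060, 1918 and 2041 in BPD livers and 3667, 1958 and 337 in GFP livers. The GFP livers enclosed all BPD livers, and the difference of -0.06 ± 0.70 (limma adjusted p = 0.96) changed sign with other scalings. Cxcl11 lay between 143 and 232 with a difference of -0.27 ± 0.23 (limma adjusted p = 0.41). Cxcl10 minus Cxcl9 within a mouse was -1.15, -0.89 and -1.66 in BPD livers and -3.33, -3.46 and -1.86 in GFP livers, which do not overlap.

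Cxcl16, a ligand that is held on the cell membrane until it is shed, and that binds CXCR6, was measured by a pair of probe sets. The dimmer rose by 1.27 ± 0.31 (limma adjusted p = 0.015), with 237, 266 and 111 in BPD livers and 37.6, 70.5 and 58.0 in GFP livers. The brighter was at 338, 510 and 241 in BPD livers and 155, 151 and 196 in GFP livers, and its difference of 0.69 ± 0.24 did not pass (limma adjusted p = 0.057). In both, every BPD signal was above every GFP signal, though for the brighter the groups overlapped after centring. The call of the dimmer was lost without GFP mouse 22 (1.12, limma adjusted p = 0.052). The brighter probe set passed with array weights (0.86, limma adjusted p = 0.021), with the arrays as deposited (0.99, limma adjusted p = 0.026) and without BPD mouse 36 (0.92, limma adjusted p = 0.016). Cx3cl1, the other membrane-held ligand, overlapped in its brightest probe set (81.9 to 118 in BPD and 69.5 to 105 in GFP livers). Of its 2 dimmer probe sets, 1 fell by 0.98 ± 0.24 without the limit (limma adjusted p = 0.026), with BPD values of 1.97 to 3.22, under the added constant, and the other overlapped.

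Cxcl12, the constitutive ligand of CXCR4 made by liver endothelium and stroma, was at 2261, 2703 and 2923 in BPD livers and at 2727, 2607 and 2582 in GFP livers. The groups overlapped, with a difference of -0.31 ± 0.16 (limma adjusted p = 0.17) that was 0.13 with quantile normalization. Its second probe set gave -0.36 ± 0.15 (limma adjusted p = 0.10), or 0.019 with quantile normalization. Cxcl13, an attractant of B cells, and Cxcl17 overlapped as well, with differences of -0.13 ± 0.25 and -0.01 ± 0.23. The probe sets of Cxcl14 disagreed in size, at 0.24 ± 0.28 and 1.31 ± 0.42, and neither passed when tested without the limit (limma adjusted p of 0.58 and 0.065). Xcl1 lay between 10.6 and 78.6 with overlapping groups.

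Of the receptor probe sets 8 of 29 were bright enough for the test, and of the ligand probe sets 21 of 44. Of the 8 receptor probe sets 2 were higher (Cxcr3 and Cxcr6) and 0 lower, against 8.28% and 20.3% of all probe sets tested, and at an unadjusted limma p under 0.05 the counts were 3 and 0. Of the 21 ligand probe sets 6 were higher and 0 lower, or 9 and 3 at an unadjusted limma p under 0.05. Tested without the limit, 4 of 29 receptor probe sets (13.8%) and 8 of 44 ligand probe sets (18.2%) were higher, and 1 and 2 were lower, against 5.27% and 10.8% of all probe sets. The median difference was -0.0090 for receptors and 0.02 for ligands, beside -0.22 for all probe sets. Ligands and receptors are members of lists and not replicates, so the difference between them was described and not tested.

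**Figure D3:**
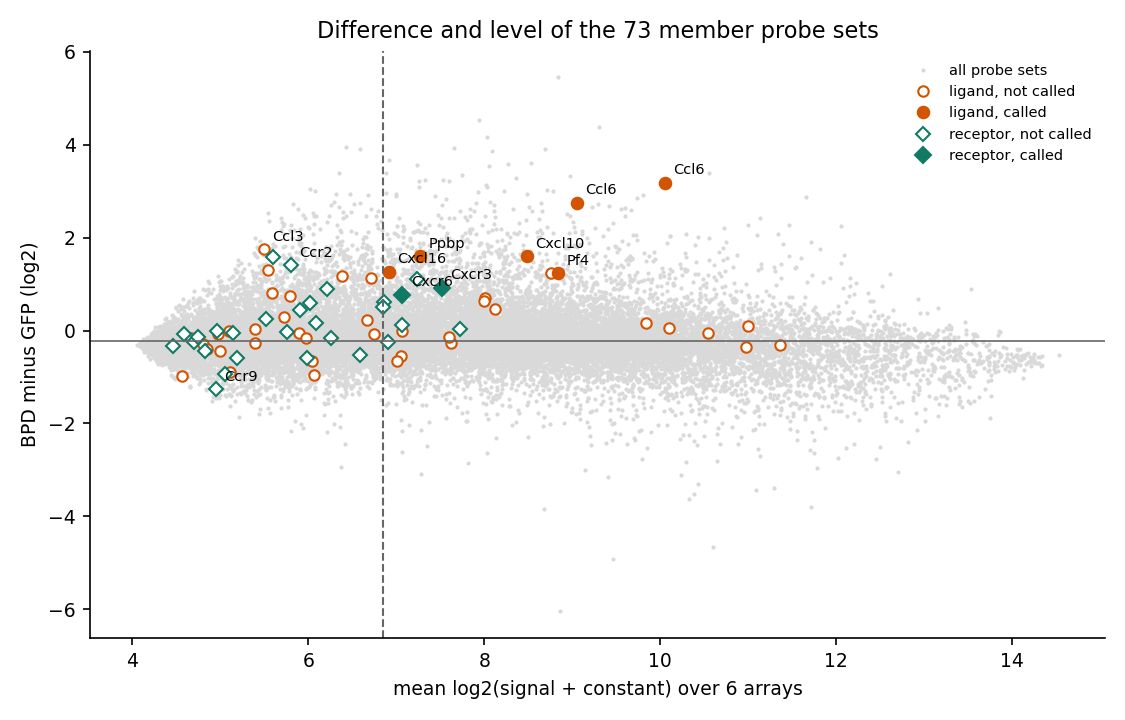
Difference between BPD and GFP livers (log2, fitted without a limit on brightness) against the mean log2(signal + 16.3) over 6 arrays, for ligands (circles), receptors (diamonds) and all probe sets (grey). Filled symbols are the 8 called members, the dashed line marks the brightness limit and the horizontal line the median of all probe sets (-0.22). Most receptors lie to the left of the limit, and all filled symbols lie above the horizontal line.

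Cxcr3, the receptor of Cxcl9 and Cxcl10 on activated T and NK cells, was at 233, 353 and 224 in BPD livers and at 53.9, 170 and 115 in GFP livers. The groups did not overlap, and Cxcr3 rose by 0.93 ± 0.30, or 1.90-fold (limma adjusted p = 0.046). This call was close to the threshold. It was lost without any one mouse except GFP mouse 29, with differences of 0.58 to 1.02 (limma adjusted p from 0.054 to 0.17), and also with quantile normalization (0.95, limma adjusted p = 0.062) and without the brightness limit (limma adjusted p = 0.081).

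Cxcr6, the receptor of Cxcl16 on T, NK and NKT cells of the liver, was at 151, 245 and 154 in BPD livers and at 72.9, 82.6 and 73.4 in GFP livers. The GFP values were nearly the same and all BPD values lay above them. It rose by 0.78 ± 0.21, or 1.71-fold (limma adjusted p = 0.025). Its second, dimmer probe set was at 79.1, 113 and 49.1 against 6.67, 22.3 and 1.82, and rose by 1.58 ± 0.33 when tested without the limit (limma adjusted p = 0.015). The call of the brighter probe set was lost without BPD mouse 28 (0.62, limma adjusted p = 0.13) and without each single GFP mouse (limma adjusted p from 0.054 to 0.056). Neither receptor passed with the 3′ to 5′ ratio of the Gapdh control as a covariate (limma adjusted p of 0.084 and 0.069). That log2 ratio was -0.44 to -0.21 in BPD and -0.35 to -0.15 in GFP livers.

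The receptors of myeloid cells gave mixed values. Ccr2, which brings monocytes out of bone marrow, had 3 probe sets. The brightest was at 211, 262 and 223 in BPD livers and at 65.1, 216 and 25.7 in GFP livers. GFP mouse 29 lay at the BPD level, and the difference of 1.12 ± 0.48 did not pass (limma adjusted p = 0.11), whereas it did without that mouse (1.72, limma adjusted p = 0.0070). Without GFP mouse 31 it was 0.55 (limma adjusted p = 0.27). The others gave 0.51 ± 0.26 (limma adjusted p = 0.17) and, for the dimmest, tested without the limit, 1.40 ± 0.29 (limma adjusted p = 0.015). Ccr1, which binds Ccl3 and Ccl5, was at 155, 188 and 101 against 39.5, 102 and 76.1, a difference of 0.62 ± 0.30 (limma adjusted p = 0.14) that was 0.36 without GFP mouse 22. Cx3cr1, found on monocytes and macrophages, overlapped between groups at 0.13 ± 0.26 (limma adjusted p = 0.73). Cxcr2, the neutrophil receptor, lay between 16.9 and 84.0 with overlapping groups.

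Cxcr4, the receptor of Cxcl12, was dim but separated the groups, with 105, 100 and 83.0 in BPD livers and 27.9, 44.6 and 26.8 in GFP livers. Tested without the limit it rose by 0.90 ± 0.23 (limma adjusted p = 0.034). The receptors Ccr3, Ccr4, Ccr7, Ccr8, Ccr10, Cxcr5 and Xcr1 did not pass in that fit, and Ccr7 was at most 14.3 on any array. Neither did Ccr6 (-0.25 ± 0.23, limma adjusted p = 0.43 in the test with the limit) or Ccr1l1 (-0.53 ± 0.26). Of 3 probe sets of Ccr9, the receptor of Ccl25, 1 fell by 1.26 ± 0.25 without the limit (limma adjusted p = 0.012). All its BPD values lay between 3.54 and 8.23, under the added constant, and the other 2 overlapped. The atypical receptors bind chemokines without the usual signal and take them up. Ackr1, of red cells and venules, was at 166, 335 and 192 in BPD livers and at 137, 241 and 154 in GFP livers, a difference of 0.03 ± 0.25 (limma adjusted p = 0.94). The probe sets of Ackr2 went opposite ways without passing, at 0.17 and -0.93 (limma adjusted p of 0.66 and 0.051 without the limit). Ackr3 (0.59 ± 0.31) and Ackr4 (-0.14 ± 0.28) did not pass in that fit either.

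Over all 73 probe sets, every BPD liver was above every GFP liver in 18 (24.7%) and below in 13 (17.8%) after centring, against 10.5% and 29.8% of all probe sets. The place of each mouse within its group was counted over the members, and the same counts over all probe sets were not taken. BPD mice 23, 28 and 36 were the lowest BPD liver in 26, 13 and 34 of the 73. In the 8 called these counts were 2, 0 and 6. The same mice were the highest BPD liver in 24, 30 and 19 of the 73. GFP mice 22, 29 and 31 were the lowest GFP liver in 30, 17 and 26 of the 73. In the 8 called their counts were 2, 1 and 5. In the brighter probe set of Ccl6, in Ccl5, in the brightest of Ccr2 and in Cxcl9 mouse 31 lay at 90.8, 93.8, 25.7 and 337. In both probe sets of Ccl6, in Ccl5 and in the brightest of Ccr2 the GFP livers had the order 29, 22 and 31 from high to low. In the other 2 probe sets of Ccr2 mouse 22 was lowest. The other called probe sets had other orders in the deposited signals. Cxcl10, Pf4 and Ppbp, and also Cxcl9, had the order 22, 29 and 31. Cxcr3 and the called probe sets of Cxcr6 and Cxcl16 had the order 29, 31 and 22.

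The summed signal of 17 macrophage and Kupffer cell markers was, in GFP livers 29, 22 and 31, 25476, 14587 and 7370, and was 59289, 53373 and 29531 in BPD livers 23, 28 and 36. Of 15 such markers bright enough for the test, 9 were higher and 0 lower, where 8.75% of all genes tested were higher and 22.1% lower. Without the limit 6 of the 17 were higher, where 5.7% of all genes were higher and 12.7% lower. Not all of this list rose. Clec4f was at -0.58 (limma adjusted p = 0.47) and Vsig4 at 0.48 (limma adjusted p = 0.56). Csf1r, Cd5l, Mpeg1 and Mrc1, at 0.66 to 1.45, did not pass either. The dim Cd163 and Marco were at -1.26 and 0.08 without the limit (limma adjusted p of 0.23 and 0.79). Inflammatory monocyte markers summed to 2801 to 3938 in BPD and 433 to 1340 in GFP livers, with 3 of 3 tested higher, of which F13a1 and Ms4a4c passed the limit only through their BPD values. Neutrophil markers summed to 9956 to 19978 and 1526 to 3944, of which Lcn2 alone made up 7796 to 12421 and 787 to 3264. Of the neutrophil markers 5 of 8 tested were higher, and S100a8, S100a9 and Ltf passed the limit only through their BPD values. T and NK cell markers summed to 1523 to 2106 and 542 to 1380, with 1 of 4 tested higher (Cd3g, in this way as well). Counts over such tested genes favour rises. Without the limit 3 of 4 monocyte, 4 of 10 neutrophil and 1 of 13 T and NK cell markers were higher. Of 11 hepatocyte markers all were lower after centring (9 without the limit), and they summed to 114106 to 124524 in BPD and 171513 to 180629 in GFP livers. The sums are of deposited signals before centring, on arrays whose medians were higher in BPD livers. As list means of centred log2 values, the macrophage and the T and NK cell lists gave an exact 2-sided permutation p of 0.2. The monocyte, neutrophil and hepatocyte lists gave 0.1 in that test, the smallest that 3 against 3 mice allow. Among the named markers of these 5 lists none was below the added constant on every array. Sums of other lists were also taken. B and plasma cell markers summed to 571 to 1123 in BPD and 367 to 539 in GFP livers, and dendritic cell markers to 487 to 858 and 289 to 428. Cholangiocyte markers summed to 1623 to 2329 and 216 to 358. Endothelial sums (3382 to 5052 and 2859 to 4651) and stellate sums (4736 to 15723 and 4814 to 5965) overlapped. The part of any of these cell types in the rises of Ccl6, Ccl3, Cxcr3 and Cxcr6 was not tested.

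**Figure D4:**
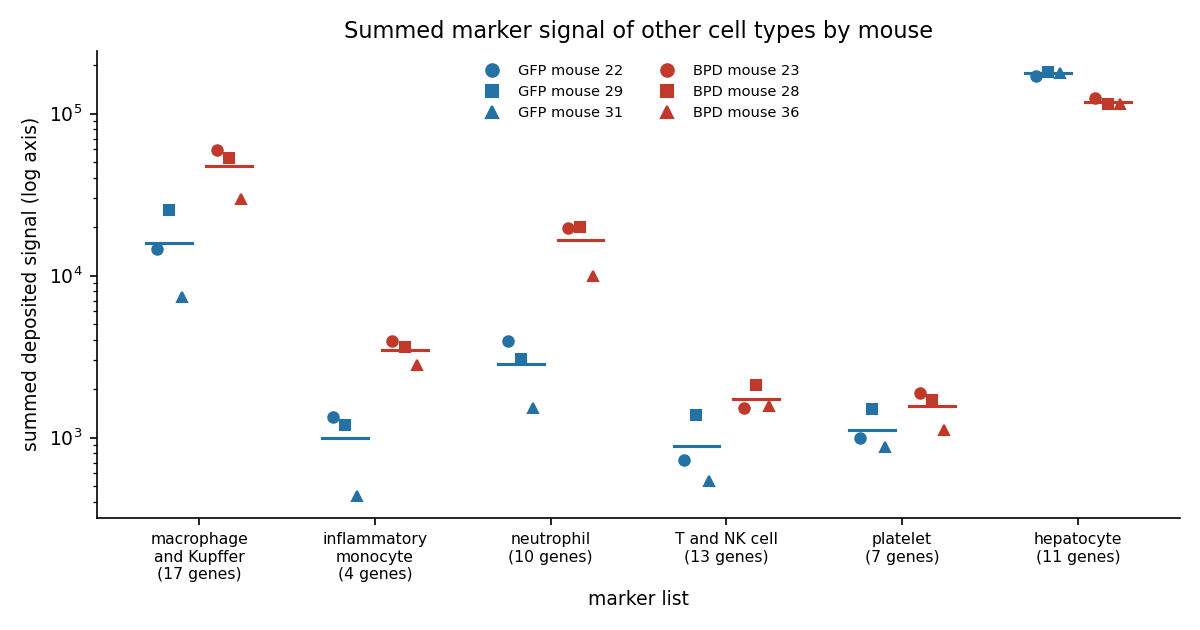
Summed deposited signal (log axis) of marker lists in each liver, GFP in blue and BPD in red, with group means as bars (n = 3 each). The signals were not centred, and the other lists that were summed are not drawn. Macrophage, monocyte, neutrophil and T and NK cell sums are higher in every BPD liver, platelet sums overlap, and hepatocyte sums are lower in every BPD liver.

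Genes that act with the receptors were followed through a list of 77, of which 67 were named here and 51 were bright enough for the test. Of the 51, 17 were higher and 2 lower, and the median difference was 0.44, against -0.22 for all genes. Of all genes tested 8.75% were higher and 22.1% lower. Dock2, Itgal and Mmp12 passed the limit only through their BPD values. Without the limit 14 of the 67 were higher and 1 lower, against 5.7% and 12.7% of all genes, and the calls of Gnai2, Prkcd, Itgal, Tlr2 and Rgs16 were lost (limma adjusted p of 0.053, 0.063, 0.063, 0.071 and 0.074). The count of 17 was 23 with the arrays as deposited (17.2% of all genes were then higher). It was 9 of 47 tested without BPD mouse 28 and 11 of 49 without BPD mouse 23. With the limit at the 60th percentile it was 10 of 27. Among 15 genes of the signal relay 4 rose and 0 fell (limma, 5 at an unadjusted p under 0.05 in either direction). Dock2, which drives migration of white blood cells, rose by 1.25 ± 0.21 (limma adjusted p = 0.0030) and Rac2, the Rac GTPase of blood cells, by 1.54 ± 0.35 (limma adjusted p = 0.011). Prkcd and Gnai2, the G protein subunit that most chemokine receptors couple to, rose by 0.68 ± 0.21 and 0.55 ± 0.18.

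Of 8 genes that end the receptor signal, 4 rose and 1 fell, where 8.75% of all genes tested were higher and 22.1% lower. Arrb2 and Arrb1, the arrestins that take receptors off the surface, rose by 1.15 ± 0.18 and 0.78 ± 0.20 (limma adjusted p of 0.0024 and 0.018). Rgs2 and Rgs1, which shorten G protein signals, rose by 1.66 ± 0.38 and 1.29 ± 0.30. Rgs16 fell by 1.53 ± 0.49 (limma adjusted p = 0.042), although its groups overlapped. Of 8 genes of adhesion and arrest, 5 rose and 0 fell, beside the same shares of all genes (limma, 6 at an unadjusted p under 0.05 in either direction). The leukocyte integrin chain Itgb2 rose by 2.08 ± 0.39, its endothelial partner Icam1 by 1.77 ± 0.26, Vcam1 by 1.95 ± 0.48, the selectin ligand Selplg by 1.21 ± 0.20 and Itgal by 1.74 ± 0.53 (limma adjusted p from 0.0018 to 0.035).

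Of 16 known inducers named here, Tnf, Il1a, Il6, Ifng and Relb were too dim for the test. Without the limit 0 of the 16 were called in either direction. Of the 11 tested, 1 rose, a share near the 8.75% of all genes, and 0 fell, where 22.1% of all genes were lower. It was the pattern receptor Tlr2 (0.79 ± 0.25, limma adjusted p = 0.039), and 2 had an unadjusted limma p under 0.05 in either direction. Il1b (0.80 ± 0.35), Irf1 (0.26 ± 0.15), Nfkbia (-0.15 ± 0.17) and Irf7 (0.67 ± 0.57) did not pass. Among 9 proteases and other chemotactic receptors, 3 rose and 1 fell. Dpp4, a membrane peptidase that trims the start of Cxcl10 and other chemokines, fell by 1.66 ± 0.20 (limma adjusted p = 9.0e-04), from 1441 ± 257 to 549 ± 47.7 (SD, n = 3 each). Mmp12, the macrophage elastase, rose by 2.95 ± 0.34 (limma adjusted p = 7.2e-04), and its mean of 27.9 in GFP livers was near the added constant. Adam10, which sheds Cxcl16 and Cx3cl1, rose by 0.92 ± 0.19 and the formyl peptide receptor Fpr2 by 0.89 ± 0.25 (limma adjusted p of 0.0083 and 0.025).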

How the data were processed

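Each of 6 one-colour arrays has a column of signal intensities in the deposited table. Per the submitters' processing notes the authors made these intensities with MAS5 (version and target value are not stated in those notes). Trimmed means of the deposited arrays all lay near 500 (499.6 to 499.7 without 2% at each end). All columns were used. Of 22690 probe sets, 64 manufacturer's controls were left out.

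Gene names came from the platform annotation. The 4 probe sets whose annotation lists a chemokine among several genes were not used. A gene was represented by its probe set with the highest mean. Values were log2(signal + 10% of the median), centred because array medians differed 1.46-fold (limit 25%), and kept above the 40th percentile of mean log2 values. BPD and GFP were compared with limma 3.58.1 in R 4.3.3 (eBayes with a trend, 2-sided, 4 residual and 5.44 prior degrees of freedom), adjusted over 13575 probe sets. The script was tested on simulated data. The labels give no sharing of numbers between groups. Members, gene lists and the naming rule (called members, the brightest of each role, disagreeing probe sets, then called pathway genes) were chosen with earlier results of these data known. The number of arrays limits precision.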

Additional observations from a re-analysis of the deposited data

How the results depend on the processing

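No paired analysis was possible because the groups share no mouse numbers. Leaving out each mouse gave 3 to 9 member probe sets higher and 0 lower each time, 3 to 8 ligand and 0 to 2 receptor probe sets higher, and 9 to 17 pathway genes higher and 1 to 3 lower. With the limit at the 60th percentile 4 of 12 members and 10 of 27 pathway genes tested were higher. No receptor probe set was bright enough to be tested at that limit. Without a limit 4 receptors were higher, 3 members lower and 1 pathway gene lower. Lower members were 1 with array weights and 2 without an intensity trend. Higher receptors were 1 with quantile normalization, 0 with the Gapdh covariate and 1 without the probe sets whose suffix marks shared transcripts. The 2 lower pathway genes became 1 with each of these 3, with the deposited scaling and with robust eBayes. The cause was not tested.

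Signs turned for probe sets that were not called in the reported fit. With the deposited scaling the differences were 0.036 for Cxcl11, 0.25 for Cxcl9, 0.17 for Cxcl13, 0.29 for Cxcl17 and 0.052 for Ccr6. With quantile normalization they were 0.26 for Cxcl9, 0.13 and 0.019 for the probe sets of Cxcl12 and 0.0019 for Cxcl17. The Gapdh covariate gave -0.11 for Cxcl1 and -0.11 for Ackr1, and array weights gave 0.068 for Cxcl17. Leaving out single mice gave values of both signs for Ccl9 (-0.099 to 0.25), Cxcl9 (-1.02 to 0.70), Cxcl1 (-0.47 to 0.33), Cxcl13 (-0.30 to 0.090), Cxcl17 (-0.16 to 0.13), Ackr1 (-0.20 to 0.20) and Cx3cr1 (-0.11 to 0.33). All 8 called probe sets kept their direction under every alternative run on them.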
